A study of Mus musculus with 6 samples.

Results

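The unstressed ventral dentate gyrus was described from the 3 control libraries of a mouse series, out of 6 libraries in all. These 3 libraries were chosen by their labels alone, which name them controls that were not stressed. No measured value entered the choice of libraries. The mice were male and of the strain the labels call C57black 6, and no genotype, allele or agent is given for them. Their age is not given, nor whether a library holds the tissue of 1 animal or of several, so the spread between libraries may be between animals or between pools. The other 3 libraries of the series came from mice under chronic restraint stress and were not used here. Values are levels and their spread over n = 3 libraries, called control 1, 2 and 3, with no test between groups.

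The dentate gyrus is the first station of the hippocampal circuit. Its granule neurons receive the perforant path from the entorhinal cortex and send mossy fibres to hilar mossy cells and CA3 pyramidal neurons, and it is among the few adult brain regions where new neurons are made. Its ventral end is connected with the amygdala and hypothalamus and has been much examined for its part in mood and anxiety. A dissected piece holds granule neurons together with interneurons, glia, vessels and, at its edges, neighbouring hippocampal fields. In such a bulk sample, fewer cells of a type and less RNA per cell cannot be told apart.

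Gene counts came to 8305753, 10107953 and 9329719 in control 1, 2 and 3. A further 60.9% to 63.1% of the listed reads were assigned to no counted feature and were left out. How many of them lie within genes cannot be told from the counts. Levels are counts per 1000000 gene counts (CPM), and levels of different genes are compared as CPM per kilobase of merged exon. That scale depends on the length used: with the longest transcript per gene, 155 of 657 detected list members (23.6%) were more than 1.5 times as high, with a median ratio of 1.17. Where no read was counted, the true level may still be as high as 3 counts, or 0.361, 0.297 and 0.322 CPM in control 1, 2 and 3, a limit for counting error only. A gene was called detected at 1 CPM or more in each of the 3 libraries, at the floor with 3 counts or fewer in each, and trace otherwise. The libraries differed pairwise by more than sampling noise, with chi-square values per degree of freedom of 3.42 to 5.32 over genes. Control 1 stood somewhat apart: the pair of control 2 and 3 had the smallest median absolute log2 ratio, 0.10, against 0.13 and 0.14 for the pairs with control 1. Ddx3y, a Y-linked gene, was at 109.6, 107 and 115 CPM, and Xist, the RNA that silences an X chromosome in females, at 0.361, 0.198 and 0.965 CPM, which matches the labelled sex in all 3 libraries.

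The granule neuron markers were all present. Prox1, the transcription factor that sets and keeps granule neuron identity, was at 132, 115 and 93.1 CPM in control 1, 2 and 3. Calb1, the calcium buffer calbindin of mature granule neurons, was at 161, 220.4 and 176 CPM. Dsp, which codes for the junction protein desmoplakin, was at 136, 114 and 91.5 CPM. C1ql2, a secreted synaptic organiser of mossy fibre terminals, was at 72.4, 75.3 and 63.0 CPM. Prox1 and Dsp were highest in control 1 and lowest in control 3, Calb1 was highest in control 2, and C1ql2 was lowest in control 3. Per kilobase, Calb1 reached 38.3 ± 6.38 CPM (SD, n = 3) and C1ql2 35.1 ± 3.20, which placed them above 92.2% and 91.1% of detected genes, while Prox1 at 13.5 ± 2.32 and Dsp at 11.8 ± 2.32 stood above 72.2% and 68.2%. On GRCm38 these genes lie at chr1:190118035-190170714 on the minus strand (Prox1), chr4:15881264-15908064 on the plus strand (Calb1), chr13:38151294-38198577 on the plus strand (Dsp) and chr1:120340582-120343174 on the plus strand (C1ql2).

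The 250 bases before the transcription start of 3 of these markers are printed here as examples, not as typical of detected genes. A GABA-A receptor pair is printed with them. Gabrb2 was the subunit gene with the highest level of its family here. Gabra6, a subunit known from cerebellar granule cells, was at the floor. Sequences are from RefSeq on GRCm38.p6, 5′ to 3′ on the gene's strand, with each CG dinucleotide in capitals. They lie at chr1:190170828-190171077 (Prox1, minus strand), chr13:38151044-38151293 (Dsp, plus strand), chr1:120340332-120340581 (C1ql2, plus strand), chr11:42420190-42420439 (Gabrb2, plus strand) and chr11:42321073-42321322 (Gabra6, minus strand).
Prox1: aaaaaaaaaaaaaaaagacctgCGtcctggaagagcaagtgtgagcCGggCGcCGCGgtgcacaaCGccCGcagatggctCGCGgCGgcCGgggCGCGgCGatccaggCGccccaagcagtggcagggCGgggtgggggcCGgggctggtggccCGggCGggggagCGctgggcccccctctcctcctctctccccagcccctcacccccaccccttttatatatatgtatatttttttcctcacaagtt
Dsp: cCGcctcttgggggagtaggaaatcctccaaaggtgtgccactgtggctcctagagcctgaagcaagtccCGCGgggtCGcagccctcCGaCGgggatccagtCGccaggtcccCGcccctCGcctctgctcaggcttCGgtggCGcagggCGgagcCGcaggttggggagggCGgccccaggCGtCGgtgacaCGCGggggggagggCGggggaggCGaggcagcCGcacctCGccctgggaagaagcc
C1ql2: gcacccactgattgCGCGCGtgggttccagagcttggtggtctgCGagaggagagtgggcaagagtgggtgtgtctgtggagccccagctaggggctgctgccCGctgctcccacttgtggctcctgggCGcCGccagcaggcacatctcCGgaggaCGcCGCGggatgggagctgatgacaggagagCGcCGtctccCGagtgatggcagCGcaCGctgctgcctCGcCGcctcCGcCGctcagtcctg
Gabrb2: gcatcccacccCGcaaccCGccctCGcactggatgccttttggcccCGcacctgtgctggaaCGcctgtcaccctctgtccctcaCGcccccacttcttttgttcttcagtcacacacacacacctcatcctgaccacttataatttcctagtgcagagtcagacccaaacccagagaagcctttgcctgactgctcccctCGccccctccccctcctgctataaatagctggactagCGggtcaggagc
Gabra6: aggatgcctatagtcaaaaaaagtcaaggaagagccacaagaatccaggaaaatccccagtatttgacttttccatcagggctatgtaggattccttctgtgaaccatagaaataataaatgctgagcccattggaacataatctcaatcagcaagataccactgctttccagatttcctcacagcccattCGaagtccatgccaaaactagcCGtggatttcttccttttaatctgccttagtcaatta

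Prox1, Dsp and C1ql2 held 20, 22 and 20 CG dinucleotides in these windows, Gabrb2 held 8 and Gabra6 held 2. Over the 16032 protein-coding genes with a RefSeq start sequence, the median number was 16 for the 10292 detected genes, with quartiles of 9 and 23. It was 6 for the 1246 trace genes and 2 for the 4494 genes at the floor. Of the 3912 genes with 20 or more CG dinucleotides, 93.3% were detected and 3.14% were at the floor. Of the 4326 with 3 or fewer, 17.5% were detected and 72.6% were at the floor, so Gabra6 sat with the majority of its class. The letters TATAAA, on either strand, were in 6.00% of the windows of detected genes and in 25.3% of those at the floor, against 11.9% of all windows. Prox1 and Gabrb2 held these letters and Dsp, C1ql2 and Gabra6 did not. These are descriptions of letters, not of bound sites.

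Of 24062 listed genes, 13644 (56.7%) were detected, 2232 were trace and 8186 (34.0%) were at the floor. Among protein-coding genes 13067 of 20451 (63.9%) were detected, and among long noncoding RNAs 335 of 1580 (21.2%). Protein-coding genes took 96.1% ± 0.144 of gene counts and long noncoding RNAs 2.93% ± 0.139. The counts were spread widely over genes. The 10 most abundant genes held 4.23% ± 0.142 of counts, the 100 most abundant 14.8% ± 0.223 and the 1000 most abundant 46.2% ± 0.308, and 1174, 1207 and 1198 genes together held 50 percent of counts in control 1, 2 and 3. Per kilobase, the median detected gene was at 6.55 CPM, the 90th percentile at 32.1 and the 99th at 143.

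**Figure D1:**
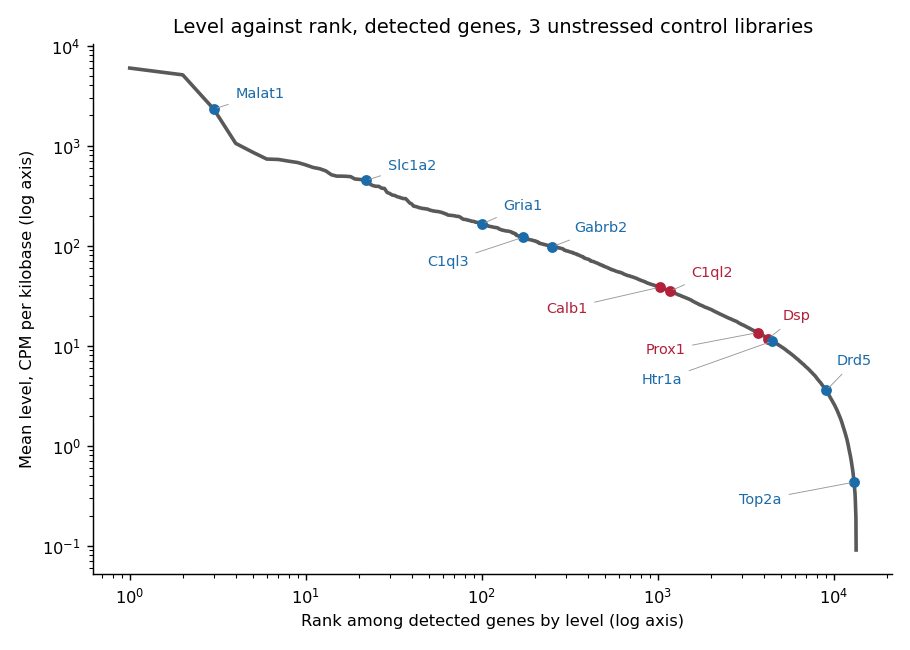
Mean level of each detected gene in CPM per kilobase (vertical, log axis) against its rank (horizontal, log axis) over the 3 control libraries, with short and pseudogene RNAs left out. The labelled points show the 4 granule neuron markers in red, at 11.8 to 38.3 CPM per kilobase, below Malat1 and Slc1a2 and above the dopamine receptor Drd5 and the cell division gene Top2a.

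The most abundant RNA was Malat1, a nuclear long noncoding RNA, at 17560, 15500 and 15500 CPM in control 1, 2 and 3. It alone took 1.62% ± 0.119 of counts, and control 1 was above both others. Slc1a2, the glial glutamate transporter GLT-1, followed at 6147, 6055 and 5448 CPM, and was lowest in control 3. Eef1a1, the elongation factor that brings tRNA to the ribosome, was at 2697, 2703 and 2469 CPM. Map1b and Sptan1, of the neuronal cytoskeleton, were at 2599 ± 72.7 and 2289 ± 101 CPM. The imprinted noncoding RNA Meg3 was at 2418, 2324 and 2821 CPM, and the noncoding RNA 2900097C17Rik at 2482, 2228 and 2502 CPM. Hspa8, a constitutive chaperone, Sparcl1, a secreted astrocyte protein, and Kif5a, an axonal motor, lay between 2128 and 2196 CPM on average. Adcy1, the calmodulin-stimulated adenylyl cyclase, was the most uneven of the 15 most abundant genes, at 2453, 1870 and 1775 CPM. Glul, the glutamine synthetase of astrocytes, Cpe, which trims neuropeptides, and Actb, an actin, were also among these 15 at 1951 ± 188, 1823 ± 78.4 and 1814 ± 86.6 CPM.

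Per kilobase, the order changed in favour of short genes. Pseudogenes, short RNA classes such as small nucleolar RNAs, and genes with under 200 merged exon bases were left out of this ranking. Symbols without a matched gene model were left out too. Rmrp and Rpph1, RNA parts of ribonucleases, came first at 5955 ± 529 and 5095 ± 837 CPM per kilobase, ahead of Malat1 at 2318 ± 170 and Eef1a1 at 1052 ± 53.7. Calm2 and Calm3, which code for calmodulin, were among the 15 highest at 858 ± 35.01 and 605 ± 36.0 CPM per kilobase. The same 15 held Sparcl1, Cpe, Actb, Glul, Hspa8, the neuronal membrane glycoprotein Gpm6a at 558 ± 26.7 and the ribosomal protein Rplp1 at 495 ± 43.5. The predicted gene Gm20594 was also among them, at 795, 711 and 417 CPM per kilobase in control 1, 2 and 3, and was the single gene of these 15 whose highest library was at least 1.5 times its lowest. Reads of genes with near-identical copies could be split or dropped by the counting, so the levels of Eef1a1, Rplp1 and Gm20594 are uncertain.

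Cell types were read from lists of genes known to mark them. The gene lists here and below were chosen with earlier results of these data known, so their counts are descriptions only. Of the mature granule neuron list, 20 of 20 genes were detected, with a median of 13.8 ± 1.85 CPM per kilobase. C1ql3, a synaptic organiser related to C1ql2, was the highest at 293, 317 and 309.7 CPM, or 121 ± 4.91 CPM per kilobase, and its range did not overlap that of any other member. Tdo2, a tryptophan-degrading enzyme, was the lowest at 17.2, 12.8 and 13.2 CPM. Between them, neighbours in the order of levels mostly had ranges that overlapped, such as Calb1, the transcription factor Rfx3 and C1ql2 at 35.1 to 38.3 CPM per kilobase.

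Immature granule neurons and dividing cells left a smaller trace. Of 10 genes listed for immature granule neurons 8 were detected. Calb2, which interneurons and mossy cells also express, was the highest at 38.2 CPM per kilobase. The transcription factor Bhlhe22 followed at 102, 112 and 81.3 CPM, or 29.4 CPM per kilobase. Sox11 and Neurod1, transcription factors of young neurons, were at 74.5, 67.1 and 67.3 CPM and at 29.1, 28.3 and 23.7 CPM. Dcx, the microtubule protein doublecortin of migrating neuroblasts, was at 38.9, 31.9 and 35.7 CPM, while Neurod4 and Eomes, the latter of intermediate progenitors, were trace. Of 14 genes of stem cells and dividing progenitors 9 were detected. Hopx and Sox2, expressed in radial stem cells and also in astrocytes, were the highest per kilobase at 49.2, 55.8 and 52.6 CPM and at 32.8, 31.4 and 27.98 CPM. The division genes were near the limit: Top2a was at 2.77, 4.95 and 3.97 CPM, Mki67 at 4.09, 4.25 and 2.25 CPM, and Cdk1 and Ccnb1 were below 1 CPM in all 3 libraries.

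Markers of neighbouring neurons were present as well. All 15 CA3 genes were detected, with a median of 5.98 ± 0.628 CPM per kilobase, led by Nptx1, a secreted pentraxin, at 387, 314 and 296 CPM. All 13 genes of CA1 and subicular pyramidal neurons were detected, with a median of 6.65 ± 0.653, led by Dkk3, a secreted protein, at 370.1, 404 and 419.8 CPM. Of 9 CA2 genes 8 were detected, led by the calmodulin regulator Pcp4 at 104, 84.3 and 69.7 CPM. Ntsr2, next in that list at 20.5 CPM per kilobase, is also on the astrocyte list. Which cells made the RNA of these genes cannot be told from bulk levels, so they do not show CA2 tissue by themselves. Avpr1b, the vasopressin receptor used as a CA2 marker, had 0 counts in each library. Of 15 neocortical and entorhinal genes 14 were detected. Of 11 mossy cell genes 10 were detected, but the defining receptor gene Drd2 was at 1.81, 1.29 and 1.07 CPM and Calb2, the buffer calretinin, at 46.5, 72.8 and 80.2 CPM, where control 1 was well below the others. Calb2 also marks interneurons and immature granule neurons.

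GABAergic interneurons were represented by 21 of 25 genes, with a median of 6.63 ± 0.488 CPM per kilobase. Gad1 and Gad2, which make GABA, were at 346, 348 and 381 CPM and at 161, 151 and 165 CPM. Among peptides of interneuron classes, Cck was at 129, 153 and 142 CPM, Sst at 62.01, 73.9 and 86.1 CPM, Vip at 19.1, 21.6 and 27.6 CPM and Npy at 16.3, 18.2 and 19.1 CPM. Pvalb, of fast-spiking cells, was at 27.8, 24.8 and 25.9 CPM. Per kilobase, Cck at 108 and Sst at 103 CPM were the highest of the list and were followed by Cnr1, the cannabinoid receptor, at 51.9. Chat, which makes acetylcholine, was at the floor.

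Astrocytes gave the highest median of the 22 cell type lists, with 22 of 22 genes detected and a median of 28.9 ± 3.37 CPM per kilobase. Apoe, a lipid carrier, was at 1043, 1066 and 867 CPM and reached 464 CPM per kilobase, next to Slc1a2 at 448. By the longest transcript these were 704.5 and 507 CPM per kilobase. Aldoc, a glycolytic enzyme, was at 767, 867 and 749.5 CPM, and Gfap, an intermediate filament, at 291, 349 and 270.1 CPM. Gli3, a Hedgehog pathway factor, was the lowest at 18.4, 20.2 and 17.6 CPM. All 20 genes of myelinating oligodendrocytes were detected, with a median of 14.2 ± 1.77. Mbp, a main myelin protein, was at 936, 1097 and 901 CPM and was highest in control 2. All 13 precursor genes were detected, among them Pdgfra at 85.4, 102 and 90.6 CPM.

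Microglia and macrophages were represented by 20 of 21 genes, with a median of 8.62 ± 2.17. Csf1r, the receptor that keeps microglia alive, was at 97.8, 135 and 101 CPM. P2ry12, a receptor of resting microglia, was nearly even at 50.1, 52.4 and 51.0 CPM. Pf4, of border macrophages, was trace. All 16 endothelial genes were detected, led by the glucose transporter Slc2a1 at 62.5, 100.3 and 80.2 CPM, and 10 of 13 genes of pericytes and smooth muscle. All 18 fibroblast genes were detected, led by Ptgds, a prostaglandin synthase, at 279.7, 152 and 292 CPM, where control 2 was lowest. Ptgds is also made in oligodendrocytes.

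Choroid plexus and ependymal genes were mostly below detection, whereas most genes listed for striatum and thalamus were detected. Of 15 choroid plexus genes 6 were detected. Ttr, the transthyretin that dominates that tissue, was at 4.46, 2.97 and 3.54 CPM, and Folr1, Aqp1, Kcne2, Otx2 and Slc4a5 were at the floor. Enpp2, the highest gene of that list at 156, 178 and 158 CPM, is also made by oligodendrocytes. Of 12 ependymal genes 4 were detected, with Foxj1, the master factor of motile cilia, at 3.13, 2.18 and 1.72 CPM. Of 15 striatal and amygdalar genes 12 were detected, with a median of 2.62 ± 0.984 CPM per kilobase. The highest were Ppp1r1b, a phosphatase regulator of dopamine-responsive neurons, at 19.4, 22.6 and 23.9 CPM and the transcription factor Meis2 at 66.1, 87.7 and 96.5 CPM, whereas Isl1 had 0 counts in each library. Of 17 thalamic and habenular genes 12 were detected, with a median of 1.44 ± 0.284 CPM per kilobase, led by Calb2, Slc17a6, a vesicular glutamate carrier, at 17.6 and the nuclear receptor Rora at 11.1 CPM per kilobase. Pou4f1 of the habenula had a single count, in control 2. Drd1a, the D1 dopamine receptor, was present at 9.51, 5.94 and 13.1 CPM, with control 3 highest. The haemoglobin genes Hba-a1, Hba-a2 and Hbb-bs were listed at 0. They have near-identical copies that the counting may drop, and Alas2, the haem synthesis enzyme of red cells, had 8.67, 2.28 and 5.79 CPM.

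**Figure D2:**
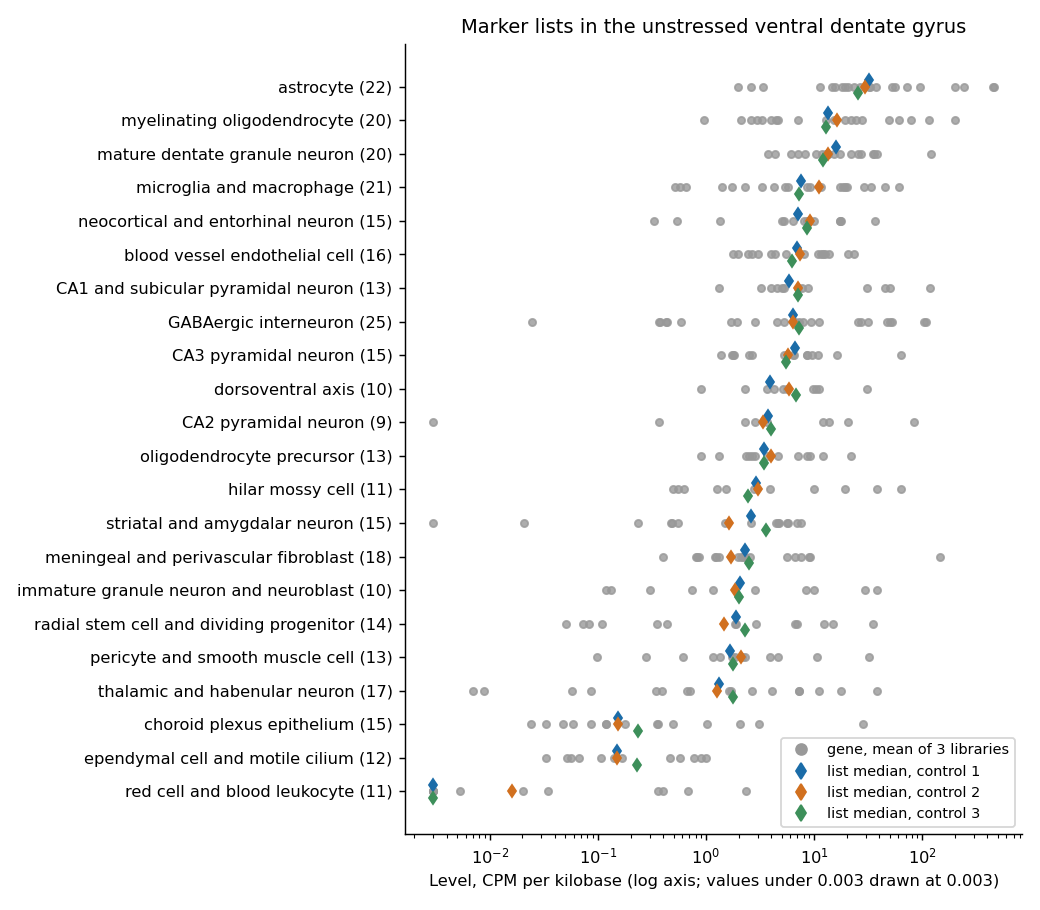
Level of each marker gene (grey points) and the median of its list in each control library (diamonds), in CPM per kilobase on a log axis, with the number of genes in brackets. Astrocyte, oligodendrocyte and granule neuron lists had the highest medians, 13.8 to 28.9 CPM per kilobase, and choroid plexus, ependymal and blood lists the lowest, 0.179 or less.

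Receptors and channels were examined subunit by subunit, as 360 genes in 28 families. Of these, 275 were detected, 31 were trace and 54 were at the floor. For receptors the counts were 145, 22 and 31 of 198, and for channels 130, 9 and 23 of 162.

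Glutamate acts through AMPA receptors, which carry fast excitation, NMDA receptors, which gate plasticity, kainate receptors and the G protein-coupled metabotropic receptors. All 16 AMPA receptor and auxiliary genes were detected. Gria1 was at 1026, 1030 and 920.2 CPM and Gria2, the subunit that blocks calcium entry, at 1565, 1536 and 1539 CPM. Per kilobase, however, Gria1 was above Gria2, at 164 ± 10.3 CPM against a mean of 99.5. Gria3 was at 27.9 and Gria4 at 23.5 CPM per kilobase. Among auxiliary subunits, Cnih2, which speeds export and slows gating, was the highest at 98.2 CPM per kilobase. Cnih3 at 25.7 and Cacng8 at 19.6, a transmembrane AMPA receptor regulatory protein, followed. Cacng2, the stargazin of cerebellum, was at 24.6, 17.5 and 20.5 CPM, and Cacng4 was the lowest at 3.49, 2.97 and 3.11 CPM.

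Of 7 NMDA receptor genes 6 were detected. Grin1, the obligatory subunit, was at 361, 347 and 351 CPM and the highest per kilobase at 36.4 CPM, or 82.6 CPM by the longest transcript. Grin2a was at 379, 387 and 341 CPM and Grin2b at 456, 444 and 423 CPM, yet per kilobase Grin2a at 20.6 was above Grin2b at 17.8, with ranges that did not overlap. Grin2c at 46.0, 46.6 and 36.6 CPM was lowest in control 3. Grin2d was at 4.33, 3.86 and 3.97 CPM and Grin3b at the floor. All 9 kainate, delta and auxiliary genes were detected, led by Grik5 at 18.6 CPM per kilobase. Of 8 metabotropic receptors 7 were detected. Grm5, which couples to calcium release, led at 599, 708 and 705 CPM, and Grm3 and Grm2, which inhibit transmitter release, were at 133, 150 and 138 CPM and at 62.7, 62.1 and 68.1 CPM. Grm6, known from retinal bipolar cells, had 0 counts in each library.

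GABA-A receptors are chloride channels built of several subunits, and 12 of 19 subunit genes were detected. Gabrb2 was at 575, 653 and 638 CPM, lowest in control 1, and at 97.8 CPM per kilobase, or 156 by the longest transcript. Gabra5, a subunit of extrasynaptic receptors in the hippocampus, was at 157, 135 and 151 CPM, or 49.6 CPM per kilobase. Gabrd, the delta subunit that gives granule neurons a tonic current, was at 36.8, 30.7 and 35.4 CPM, or 11.9 CPM per kilobase, and Gabra4, its usual partner there, at 171, 173 and 169 CPM. Gabra3 was the single member that reached a ratio of 1.5 between libraries, at 39.3, 56.6 and 69.4 CPM. The rho subunits were trace (Gabrr2) or at the floor (Gabrr1 and Gabrr3), as were Gabra6, Gabre and Gabrp at the floor. All 6 genes of GABA-B receptors and their auxiliary subunits were detected, with Gabbr1 at 603, 701 and 660.3 CPM and Gabbr2 at 243, 228 and 216 CPM. Glrb, the beta subunit of glycine receptors, was at 216, 251 and 270.2 CPM, while the alpha subunits Glra2 at 12.3, 13.95 and 16.9 CPM and Glra3 at 5.66, 6.33 and 5.79 CPM were far lower and Glra1 was trace.

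**Figure D3:**
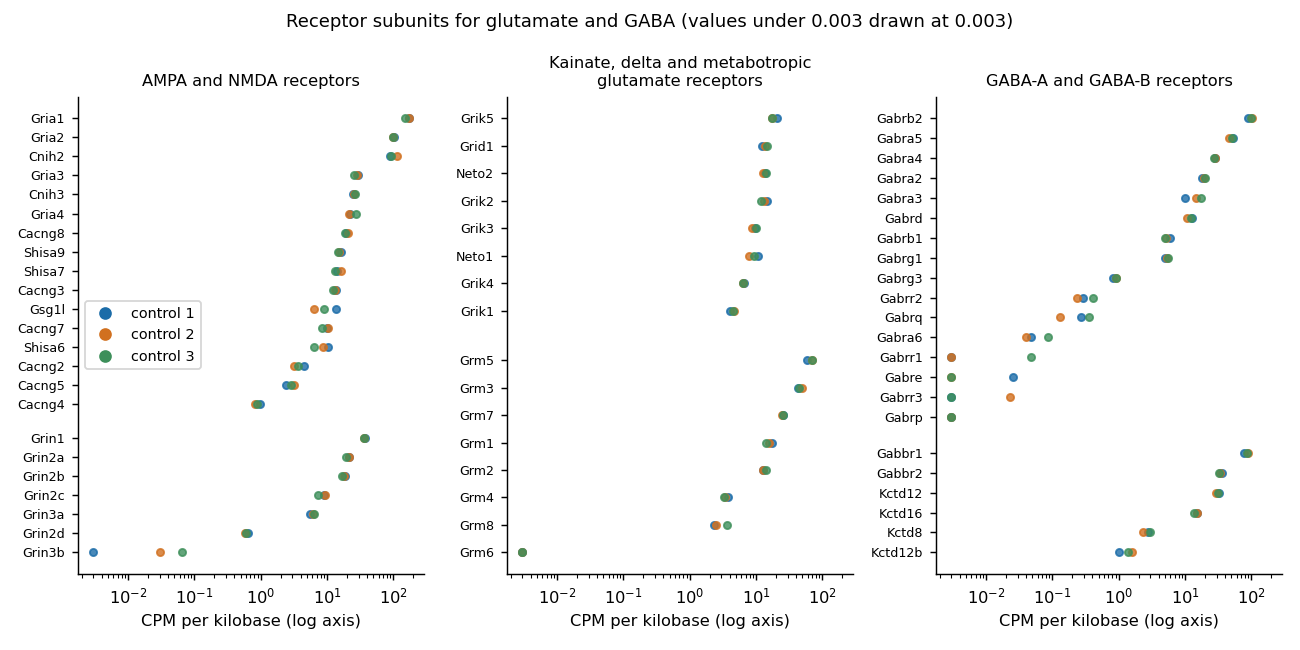
Level in CPM per kilobase (log axis) of each glutamate and GABA receptor gene in control 1, 2 and 3, one point per library, sorted within family, for the members reported here. Members spread from 164 CPM per kilobase for Gria1 to 0 for Grm6 and Gabrp, and the 3 libraries lay close together for most detected members.

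Receptors for modulators differed widely in level. Among acetylcholine receptors, 5 of 16 nicotinic genes were detected, with Chrnb2 at 72.8, 83.3 and 88.9 CPM, Chrna4 at 40.5, 37.3 and 43.7 CPM and Chrna7 at 34.6, 30.7 and 26.5 CPM, the parts of the main brain receptor types. The muscle subunits Chrnd and Chrng had 0 counts in each library. Of 5 muscarinic receptors 4 were detected, led by Chrm1 at 163, 193 and 187 CPM, and Chrm5 was trace. Of 14 serotonin receptors 10 were detected. Htr1a, an inhibitory receptor, was the highest per kilobase at 11.1 ± 0.802 CPM, from 53.6, 49.5 and 46.4 CPM. Htr4 was at 31.7, 31.4 and 24.7 CPM, and Htr2c at 24.7, 46.6 and 46.8 CPM, where control 1 was below the other pair. Htr3a, a cation channel of interneurons, was at 9.03, 7.62 and 11.4 CPM, and its partner Htr3b had 0 counts in each library.

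Dopamine receptors were low in all 3 libraries. Drd5 was at 8.19, 15.8 and 9.75 CPM and Drd1a at 9.51, 5.94 and 13.1 CPM, and their order differed between libraries. Drd3 and Drd4 were at the floor. Of 9 adrenergic receptors 7 were detected, led by Adra1d at 21.8, 19.2 and 21.3 CPM. Adora1, an inhibitory adenosine receptor, was far above Adora2a, at 244, 255 and 253 CPM against 1.69, 1.29 and 1.39 CPM. Cnr1 was at 304, 305 and 394 CPM, highest in control 3, while Cnr2 was trace. Among opioid receptors Oprl1, for nociceptin, was at 65.9, 66.6 and 68.3 CPM, Oprd1 at 16.5, 20.3 and 22.6 CPM, Oprm1 at 2.77, 3.46 and 2.47 CPM, and Oprk1 was trace.

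Of 41 neuropeptide receptors 28 were detected. Adcyap1r1, the PACAP receptor, was the highest and very even at 323, 320.4 and 324 CPM. Npy1r was at 44.6, 42.9 and 48.6 CPM and Npy2r at 71.4, 45.5 and 45.7 CPM, where control 1 stood above the other pair. Crhr1, the main receptor for the stress peptide CRH, was at 17.8, 15.5 and 17.4 CPM, and Crhr2 at 1.32, 1.09 and 2.89 CPM. Oxtr was at 7.47, 7.52 and 9.86 CPM. The vasopressin receptors Avpr1b and Avpr2 and the galanin receptor Galr2 had 0 counts in each library. Of the peptides themselves 15 of 25 were detected. Pdyn, the dynorphin precursor of granule neurons, was at 14.9, 14.3 and 11.5 CPM and Penk, the enkephalin precursor, at 10.7, 10.2 and 6.86 CPM, while Crh, Gal and Trh were trace and Avp, Oxt, Hcrt and Agrp of the hypothalamus were at the floor.

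Corticosteroids act through Nr3c2, the high-affinity mineralocorticoid receptor, and Nr3c1, the glucocorticoid receptor. Nr3c2 was at 186, 227 and 183 CPM and Nr3c1 at 179, 177 and 173 CPM. Per kilobase Nr3c2 was at 30.7 ± 3.76 and Nr3c1 at 23.0 ± 0.354 CPM, with ranges that did not overlap. Thra, a thyroid hormone receptor, was the highest of this family at 91.7 CPM per kilobase, or 172.5 by the longest transcript. Esr1 was at 1.57, 1.48 and 1.82 CPM and Esr2 was trace. Bdnf, the growth factor stored in mossy fibres, was at 43.3, 37.0 and 39.8 CPM, and its receptor Ntrk2 at 645, 687 and 694 CPM.

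Sodium channels start the action potential, and 11 of 14 of their genes were detected. Scn2a1, Scn8a and Scn1a, the pore subunits of brain, were at 783, 736 and 815 CPM, at 514, 461 and 455 CPM and at 291, 296 and 299 CPM. The auxiliary subunit Scn2b was at 361, 342 and 366 CPM. Scn4a of skeletal muscle and Scn10a and Scn11a of sensory neurons were at the floor. Of 20 calcium channel genes 16 were detected. Cacna1e, the R-type pore, was at 777, 771 and 767 CPM, the highest pore in CPM, and Cacna1a, the P/Q-type pore, at 137, 94.0 and 89.5 CPM, where control 1 was above the others. Cacna1s of muscle and Cacna1f of retina were at the floor.

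Potassium channels set firing and rest. Of 36 genes of voltage-gated channels 33 were detected. Kcnab2, an auxiliary subunit, was at 527, 469 and 455 CPM, and the pores Kcna1, Kcna2 and Kcnd2 were at 73.5, 33.1 and 39.1 CPM per kilobase. Kcna7, Kcna10 and Kcnv2 were at the floor. The M-current pores Kcnq3 and Kcnq5 were at 97.2, 95.9 and 82.4 CPM and at 99.1, 85.3 and 99.9 CPM, and the cardiac Kcnq1 was trace. Among inward rectifiers Kcnj4 led at 40.7 CPM per kilobase. Kcnj10, the potassium-clearing channel of glia, was at 73.3, 65.5 and 46.1 CPM and Kcnj6, a G protein-gated subunit, at 73.8, 54.7 and 42.9 CPM, both highest in control 1 and lowest in control 3. Kcnk1 led the leak channels at 99.7, 94.4 and 80.5 CPM. Hcn2 was at 63.9, 47.7 and 46.2 CPM and Hcn4, the pacemaker channel of heart, at 1.45, 1.19 and 1.72 CPM.

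Trpc6, a cation channel enriched in granule neurons, led the 22 transient receptor potential genes at 105, 84.1 and 71.7 CPM. The heat and cold receptors Trpv1 and Trpm8 were at the floor and trace. Slc12a5, the KCC2 transporter that keeps neuronal chloride low, was at 429, 450.1 and 456 CPM, and Slc12a2, the NKCC1 transporter that loads chloride, at 123, 126 and 115 CPM. Per kilobase these were 59.8 and 11.1 CPM.

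Of 19 genes of glutamate uptake, packaging and recycling, 18 were detected. Slc1a2 and Slc1a3, the uptake carriers of astrocytes, were at 448 and 95.3 CPM per kilobase, and Slc1a1, the neuronal carrier, at 25.2. Slc17a7, the vesicular carrier VGLUT1, was at 780, 692 and 791 CPM, and Slc17a6, which codes for VGLUT2 and is higher in subcortical neurons, at 77.9, 113 and 94.8 CPM. Slc7a11, which codes for the cystine/glutamate exchanger xCT that the series asks about, was at 132, 135 and 132 CPM, or 9.55 CPM per kilobase. Its partner chain Slc3a2 was at 88.7, 90.3 and 98.3 CPM. Genes that make or take up monoamines were at the limit: Th, Slc6a3 and Dbh were trace and Slc6a4 and Slc6a2 at the floor, which are genes of cells whose bodies lie in the midbrain and brainstem. The degrading enzymes Maoa and Maob were detected at 43.2 to 53.0 and 19.1 to 24.3 CPM.

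The synaptic machinery was fully represented. All 22 release genes were detected with a median of 40.0 ± 6.02 CPM per kilobase, led by the fusion protein Snap25 at 1753, 1610 and 1655 CPM, and all 20 postsynaptic scaffold genes with a median of 20.8 ± 0.933, led by the kinase Camk2a at 1495, 1253 and 1082 CPM. All 23 immediate-early genes, which neuronal activity induces, were detected. Arc was at 154, 144 and 134 CPM, Fos at 15.9, 18.6 and 24.0 CPM and Npas4 at 11.2, 7.52 and 20.8 CPM, the latter pair highest in control 3. All 19 clock genes were detected, with Per2 at 39.6, 52.7 and 46.2 CPM and Arntl at 37.3, 36.3 and 39.2 CPM.

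The spread between the 3 libraries was small for abundant genes and larger for rare ones. Among genes of 1 to 5 CPM the median coefficient of variation (CV, the SD over the mean) was 21.6%. The CV expected from counting alone had a median of 21.6%. Among genes of 20 to 100 CPM the median CV was 6.64% against 5.02%, and among those of 1000 CPM or more 4.77% against 0.905%. A CV taken over 3 libraries tends to lie below the expected one. The equal medians at 1 to 5 CPM therefore do not mean that counting made up all the spread there. The common biological CV from edgeR, which leaves counting error out, was 7.60%. Without control 1 it was 5.99%. Of 11755 genes with a mean of at least 5 CPM, 590 (5.02%) had a highest library at least 1.5 times the lowest, and these are called variable. In 278 of the 590, or 47.1%, control 1 was the library farthest from the other pair, above them in 110 and below them in 168 genes. Control 2 was farthest in 172 and control 3 in 140. The farthest library was not determined over all 11755 genes, so the 47.1% has no such share beside it. Control 1 also had the fewest gene counts.

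The largest CV was that of Cbln1, a secreted synapse organiser, at 9.27, 2.08 and 13.7 CPM. Its relative Cbln4 was next at 19.5, 3.17 and 19.6 CPM, so both were low in control 2. Spink8, a protease inhibitor gene, was at 1.57, 8.01 and 6.97 CPM, low in control 1. Cebpb, a stress-responsive transcription factor, was at 8.55, 3.27 and 3.54 CPM and Trim30a, an interferon-induced gene, at 3.61, 10.4 and 4.50 CPM. Erdr1, G530011O06Rik, Ccbl2 and the small nucleolar RNAs Snord22 and Snord15b completed the 10 largest. The most even genes of at least 100 CPM were Wdr1, Slk, Kif21a, Ube2h and Idh3b, with CVs of 0.147% to 0.302%. All were below what counting alone gives for them, 1.78% to 2.99%. They were picked as the smallest CVs among many genes, so evenness as a trait of these genes was not tested. Wdr1, an actin-disassembly factor, was at 243, 243 and 244 CPM.

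**Figure D4:**
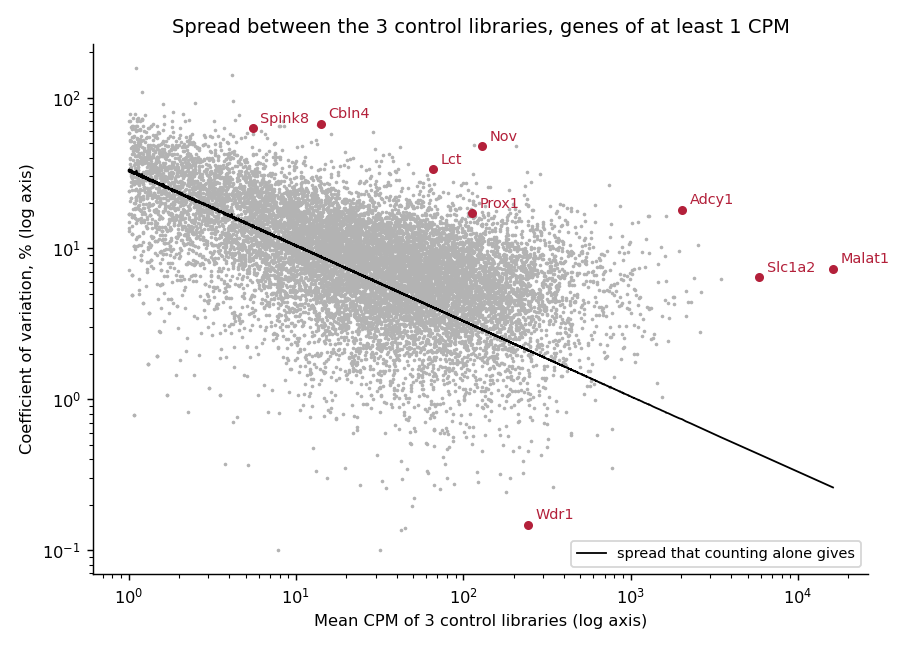
CV between the 3 control libraries in percent (vertical, log axis) against mean CPM (horizontal, log axis), one grey point per gene of at least 1 CPM, with the CV that counting alone gives as a line. Cbln4, Spink8, Nov and Lct lie far above the line, and Wdr1 at 0.147% lies far below it.

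The libraries also differed in whole lists, which the share of variable genes, 5.02% over all genes, puts in rough scale. That share falls with level. It was 12.7% at 5 to 20 CPM, 1.95% at 20 to 100 CPM and 0.847% at 100 to 1000 CPM, and the lists differ in level. Members of at least 5 CPM were counted. Over all 11755 genes, 33.3%, 32.7% and 34.1% were highest in control 1, 2 and 3. The shares of all genes lowest in each library were not determined. Counts of lowest members here and below are therefore given without that background. Of the 20 granule neuron genes, 14 were highest in control 1 and 14 were lowest in control 3, with a median log2 position against the 3-library mean of 0.21, 0.00 and -0.23, and 3 of 20 (15%) were variable. Sema5a, an axon guidance molecule, was at 296, 227 and 197 CPM, Fam163b at 34.0, 22.0 and 17.3 CPM and Maml2, a Notch coactivator, at 55.4, 46.5 and 36.9 CPM. C1ql3 and Calb1 did not share this order.

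Of 13 CA3 genes of at least 5 CPM, 11 were highest in control 1 and 5 (38.5%) were variable. Homer3, a postsynaptic adaptor, was at 31.9, 15.3 and 18.9 CPM, and Trps1, a transcription factor, at 154, 85.1 and 104 CPM. Of 12 CA1 and subicular genes, 8 were lowest in control 1 and 6 (50%) were variable. Nov, a secreted matrix protein, was at 58.9, 167 and 164 CPM, and Fibcd1, a chitin-binding receptor, at 19.3, 53.4 and 53.0 CPM. In both the values of control 2 and 3 were close to each other and far above control 1. Wfs1, a marker of dorsal CA1, was different, at 116, 60.8 and 173 CPM, with control 2 lowest.

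Of the 10 genes listed for the dorsoventral axis of the hippocampus, 8 (80.0%) were variable. Lct, a marker of dorsal granule neurons, was at 90.7, 61.5 and 46.8 CPM in control 1, 2 and 3. Trhr, a receptor of ventral granule neurons, was at 12.4, 23.9 and 25.2 CPM. Grp, a peptide gene, was at 9.51, 17.4 and 21.7 CPM and Dcn, a matrix proteoglycan, at 19.02, 33.7 and 46.3 CPM. Htr2c, a serotonin receptor, was at 24.7, 46.6 and 46.8 CPM. Lct was thus highest and Trhr, Grp, Dcn and Htr2c lowest in control 1, with control 3 at the other end for each of the 5. Spata13, at 41.3, 35.1 and 24.2 CPM, had the order of Lct. The other variable members did not share an order with these: Wfs1 was highest in control 3 and lowest in control 2, and Gsg1l was at 53.2, 24.8 and 35.7 CPM, lowest in control 2. Dcn is also on the fibroblast list. Nr2f2 and Stra6 were the members that were not variable. The part of position along this axis in the values of the granule neuron and CA1 lists above was not tested.

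Glial lists had their own pattern. All 17 microglial genes of at least 5 CPM were highest in control 2, and 6 of 17 (35.3%) were variable. Ctss, a lysosomal protease, was at 47.3, 82.4 and 53.4 CPM and C1qa, a complement protein, at 28.3, 45.6 and 31.3 CPM. Of 20 oligodendrocyte genes, 18 were highest in control 2, 14 were lowest in control 1 and 5 (25%) were variable. Of 22 astrocyte genes 20 were lowest in control 3, but only Sox9 at 17.9, 12.3 and 11.4 CPM was variable among them. Of 13 fibroblast genes 8 were lowest in control 2, and 6 of 13 (46.2%) were variable. Of 19 interneuron genes 14 were highest in control 3, with 1 variable, Tac1 at 4.46, 4.25 and 8.58 CPM. Of 19 immediate-early genes 11 were highest in control 3 and 4 (21.1%) were variable. The position of no list is independent of the others, since all values are shares of 1 total.

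**Figure D5:**
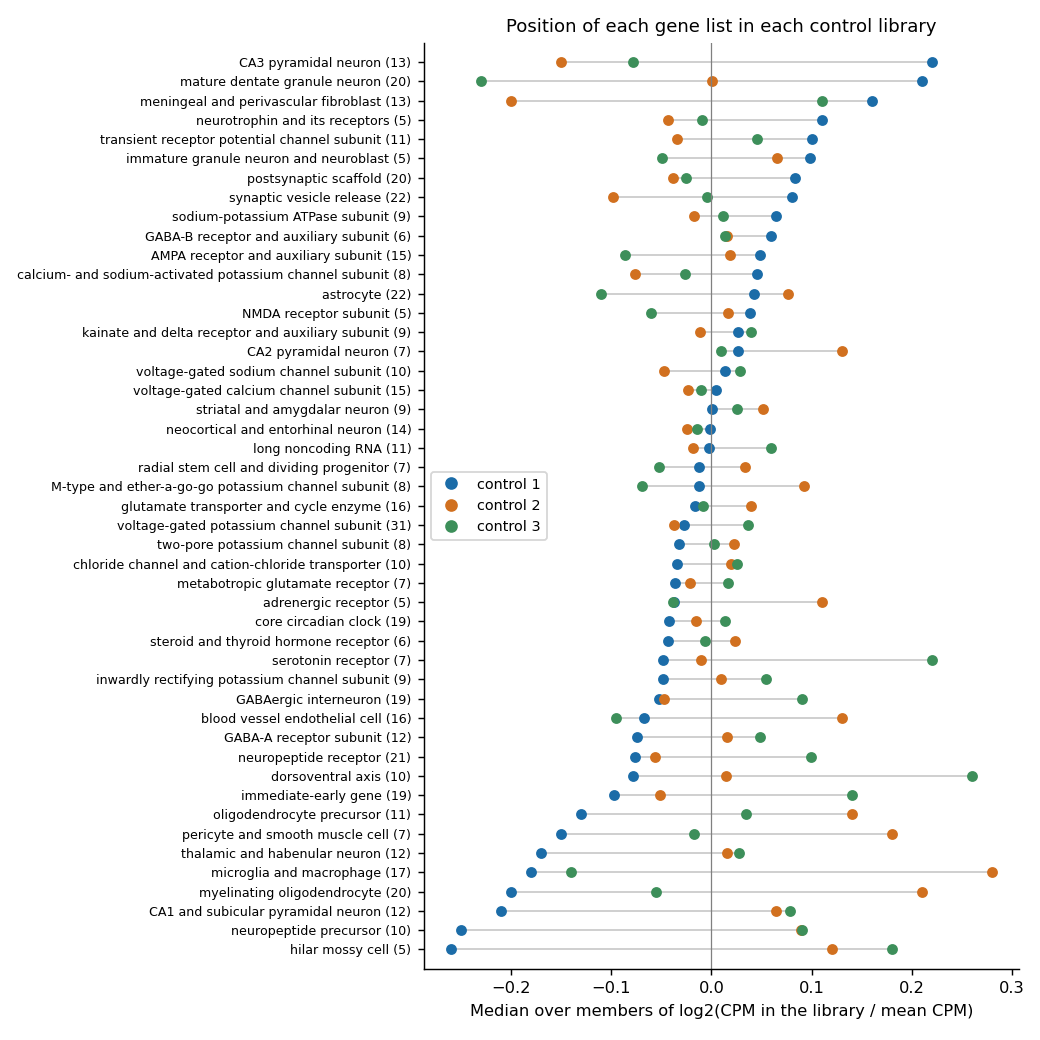
Median over the members of each list of the log2 ratio of CPM in a library to the mean of the 3 control libraries (horizontal), for lists with at least 5 genes of at least 5 CPM, with their number in brackets. Granule neuron and CA3 lists lie highest in control 1, microglial and oligodendrocyte lists highest in control 2, and channel families lie within 0.10 of 0 in all 3 libraries.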

How the data were processed

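Total RNA of the ventral dentate gyrus was made into stranded libraries after removal of ribosomal RNA, per the labels' protocols. Each library has a deposited table of raw counts, 1 row per gene symbol. The submitters' processing notes list TopHat2 2.0.9 and HTSeq 0.6.1 beside FastQC 0.11.3, Trimmomatic 0.33 and edgeR 3.12.0, and mm10 and GRCm38 as builds. Which annotation and which counting and strand options were used is not given in those notes, so genes that overlap on opposite strands, such as Tsix and Xist, may share reads.

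Counts of the 3 control libraries were divided by the gene total and multiplied by 1000000 (CPM). Summary rows were dropped: reads assigned to no feature made up 60.9% to 63.1% and ambiguous reads 0.211% to 0.226% of the reads listed. Gene totals were 8305753 to 10107953. Merged exon lengths and positions came from GENCODE M21 on GRCm38, where 23593 of 24062 symbols (98.1%) matched, and start sequences from RefSeq. Genes were named by rule: the 15 highest in CPM and per kilobase, the granule neuron markers, the 3 highest, the lowest detected and the floor members of each list, all members of lists of up to 10, and the 10 largest CVs (mean of at least 5 CPM) and 5 smallest (at least 100 CPM). Other list members, named for a known role, were chosen after their values were seen. Many genes within this rule are left out, among them all ionotropic purine receptor and sodium-potassium ATPase genes. The genes named are therefore a selection. Gene lists and their members were chosen with earlier results of these data known. Of 322 cell type genes 12 stand in more than 1 list. The common biological CV was estimated in edgeR 4.0.16 under R 4.3.3 with TMM scaling and was tested on simulated data. Other steps used Python with pandas and matplotlib. Alternatives were other detection thresholds, gene lengths, scalings and filters, and leaving out each library.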

Additional observations from a re-analysis of the deposited data

How the results depend on the processing

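The number of detected genes, 13644, was 14361 at 0.5 CPM, 13637 at 10 counts per library and 13748 to 13798 with a library left out. With the 10 most abundant genes removed from the total, the share of counts in the rest of the 100 and of the 1000 most abundant was 11.1% and 43.8%, lower by construction. The common biological CV of 7.60% was 7.60% with relative log expression scaling and 7.65% without a filter. It was 5.99% without control 1 and up to 8.48% with another library left out. The number of variable genes, 590, was 608 with TMM scaling, 130 at a mean of at least 20 CPM, 83 at a ratio of at least 2 and 190 to 332 with a library left out, the lowest without control 1. A pair of libraries gives fewer by construction. Of 28 receptor and channel families 26 had the same highest member by the longest transcript per gene. The others were calcium channels, with Cacna1e in place of Cacnb4, and the M-type and ether-a-go-go family, where Kcnh3 lost the first place. Without control 2, 26 families kept their highest member. Medians of 15 of the 22 cell type lists moved by more than their SD with the longest transcript. Examples were granule neurons at 20.4 and astrocytes at 41.8 CPM per kilobase. With TMM scaling no median moved by more than its SD. Leaving out a library could not move a median that far, by construction. The value is the mean of the library medians, and the SD is taken over those same medians. No paired analysis was possible because 1 group is described and no groups are compared. Below about 5 CPM the depth limits what spread can be seen.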

Other observations

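Gene families named by symbol, chosen after values were seen, differed widely in the share of members detected. Of 1092 olfactory receptor genes 1077 (98.6%) were at the floor and 2 were detected, Olfr613 and Olfr287. Of 327 vomeronasal receptor genes 318 were at the floor and 7 were detected, led by Vmn1r58. All 39 Hox genes, which pattern the body behind the forebrain, were at the floor, as were 41 of 42 beta-defensin genes and 33 of 35 bitter taste receptors. Of 99 cytochrome P450 genes 22 (22.2%) were detected, led per kilobase by Cyp46a1, the enzyme that clears cholesterol from neurons. By contrast, 332 of 353 Zfp zinc finger genes (94.1%), 51 of 57 Rab genes, 43 of 45 Nduf genes of mitochondrial complex I and 52 of 56 clustered protocadherin genes were detected. Ribosomal protein genes, 76 of 83 detected, had a median of 74.0 CPM per kilobase.

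Some variable genes stand outside the lists and were chosen after their values were seen. Bc1, a short noncoding RNA of neuronal dendrites, was at 301, 215 and 104 CPM in control 1, 2 and 3, a ratio of 2.89. Vwf, a clotting factor of endothelium, was at 18.7, 44.6 and 25.6 CPM, Ly6a, an endothelial surface protein, at 12.04, 28.9 and 17.8 CPM, and Ifit3 and Gbp3, which interferon induces, at 4.33, 11.6 and 6.43 CPM and at 3.37, 10.6 and 6.32 CPM. These 4 were highest in control 2.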
